A study of Homo sapiens with 10 samples.

Results

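This account covers 10 genes of 4 families that are abundant in embryonic tissue and often return in tumours: the RNA-binding genes IGF2BP1, IGF2BP2, IGF2BP3, LIN28A and LIN28B, the chromatin architecture genes HMGA1 and HMGA2, and the Y-box (cold shock domain) genes YBX1, YBX2 and YBX3. They were taken by gene symbol from the 58381 gene rows of RNA sequencing tables of GIST-T1, a long-established human line grown out of a metastatic gastrointestinal stromal tumour (GIST). The set was chosen by earlier results of the same libraries, in which IGF2BP1 and YBX3 were among the genes with the largest increases over control, above all in InsF, InsG and InsH. The values of IGF2BP1 and YBX3 are therefore described without a test, while the other members were tested in the fit over all genes. The study asked what disruption of insulators, the DNA elements where the protein CTCF holds chromosome loops apart, does to expression in cells with an intact succinate dehydrogenase complex. The groups were the insulator knockout lines InsE, InsF, InsG and InsH and the parental control with the genotype given as WT, each with 2 libraries of polyadenylated RNA. The labels used here do not say which insulator each letter stands for, whether a line is 1 clone, or whether its 2 libraries stem from separate cultures. The p-values therefore weigh differences against a library-to-library spread that may be technical only.

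As background, the IGF2BP proteins bind messenger RNAs, many of them carrying the m6A mark, and change their stability, transport and translation. LIN28 proteins block the maturation of the let-7 microRNAs, and let-7 in turn represses IGF2BP1, HMGA2 and LIN28B messages in many tissues, so that the families are tied into 1 circuit in the embryo. HMGA proteins bend AT-rich DNA, and Y-box proteins package messenger RNA in the cytoplasm and can bind single-stranded DNA and RNA. IGF2BP2 stays on in many adult tissues, whereas IGF2BP1 and IGF2BP3 are largely silenced after birth.

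Library depth was 22912425 to 42499885 expected counts in the replicates numbered 1 and 9399554 to 20078653 in those numbered 2, so the second replicates carry the larger counting error for scarce genes. Within the deeper and the shallower libraries taken apart, IGF2BP3 in InsE differed from the other lines by -3.06 and -3.05 on the log2 scale, and HMGA1 in the mean of the lines from the control by -0.73 and -0.35. Levels are given as CPM to compare libraries and as TPM to compare genes. CPM are counts scaled to a common library total, each total first multiplied by its TMM scaling factor. TPM are transcripts scaled to a common total after correction for length. Of the 10 members, 8 passed the filter on low counts and were among the 15554 genes tested. LIN28A and LIN28B did not, with 0 counts in every library. A gene was called at a Benjamini-Hochberg adjusted p under 0.05 in edgeR's quasi-likelihood test. The GIST markers KIT and ANO1 stood at 1216 to 1462 CPM and 711 to 786 CPM on average in the lines, against 2343 and 1274 CPM in the control, so the libraries have the markers of their label, although 7 of 12 GIST markers fell in the mean of the lines. Epithelial and neural markers had 1 gene lower and 0 higher each. Over all genes tested, 14.5% fell and 13.1% rose in the mean of the lines. Blood markers summed to 4 to 6.67 TPM and endothelial markers to 0.23 to 0.76 TPM in all libraries, and in this bulk RNA fewer cells of a type and less RNA per cell cannot be told apart.

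The sequence that ties most of these genes together is the let-7 site. All 9 mature microRNAs of the let-7 family in the RefSeq table (GRCh38.p14) share 1 seed, bases 2 to 8, shown in capitals in these examples because it fixes which messages let-7 can pair with:
hsa-let-7a-5p: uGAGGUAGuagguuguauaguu
hsa-let-7d-5p: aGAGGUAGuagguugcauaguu
hsa-miR-98-5p: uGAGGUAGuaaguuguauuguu
The matching 7 letters in a message are CTACCTC. In the principal transcript of each gene (GENCODE 29, hg38, sense strand), 8 of the 10 members had at least 1 exact match in the 3′ untranslated region, all except YBX1 and YBX3. Over 18915 protein-coding genes the share with a match was 8.59%. IGF2BP1, LIN28B and HMGA2 had 4 matches each, and 31 of all genes (0.164%) had 3 or more. IGF2BP2, IGF2BP3, LIN28A, HMGA1 and YBX2 had 1 match each. These shares do not allow for length. The region had a median of 876 bases over all genes, against 6206 in IGF2BP1, 4549 in LIN28B and 3003 in HMGA2. Per kilobase there were 0.0623 matches over all genes, and 0.306 to 2.32 in the 8 members with a match. A match is a description of letters, and mature let-7 is not measured in libraries of polyadenylated RNA. The members are partly known for these sites, so their number is no independent result. The sites of IGF2BP1, of IGF2BP3 and of HMGA2 are printed with the match in capitals, since these are the let-7 target members that did and did not change below:
IGF2BP1, chr17:49051059-49051088, plus strand: gctgtgtgcgaagtaaaCTACCTCaaggta
IGF2BP1, chr17:49053696-49053725, plus strand: accagcagtgctagtaaCTACCTCacagag
IGF2BP1, chr17:49054350-49054379, plus strand: gagtataaatggattaaCTACCTCaatcct
IGF2BP1, chr17:49054995-49055024, plus strand: tttcacttttgttttatCTACCTCttagca
IGF2BP3, chr7:23311790-23311819, minus strand: cgtgcatttttactcaaCTACCTCaggtat
HMGA2, chr12:65963296-65963325, plus strand: gcgccaacgttcgatttCTACCTCagcagc
HMGA2, chr12:65964531-65964560, plus strand: atccccactactcaataCTACCTCtgaatg
HMGA2, chr12:65964943-65964972, plus strand: aattgacttgcaaagacCTACCTCcagact
HMGA2, chr12:65965796-65965825, plus strand: acaatcaaaacacactaCTACCTCttaagt

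Across the members, 3 patterns were seen. YBX3, IGF2BP1 and IGF2BP3 were much higher in InsF, InsG and InsH than in InsE, and IGF2BP3 in InsE was below the control. The abundant relatives IGF2BP2, HMGA2 and YBX1 differed little between groups, by at most 0.30 on the log2 scale in the contrasts of the edgeR fit on all 10 libraries. The scarce genes YBX2 and HMGA1 were shifted in the same direction in all 4 lines, YBX2 upward and HMGA1 downward. The plot of CPM by library shows all 8 detected members.

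**Figure D1:**
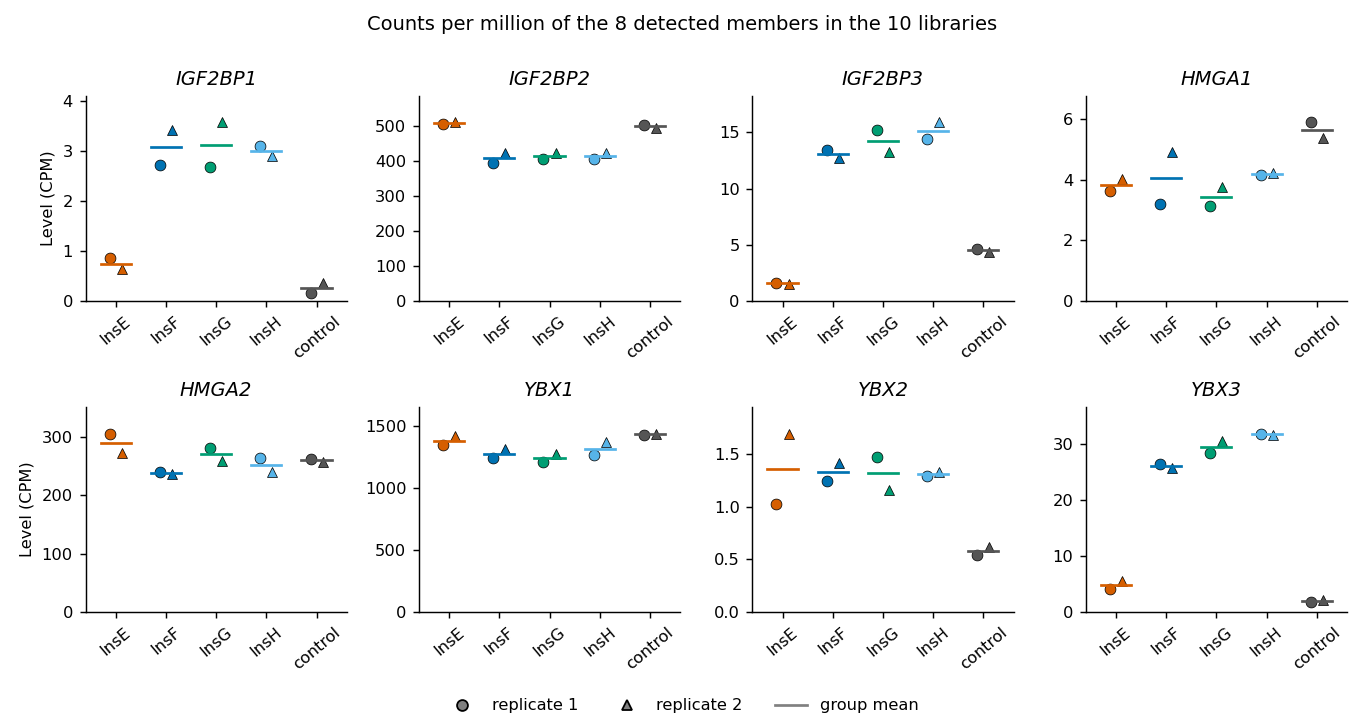
Level of each detected member in CPM (linear axis starting at 0) in the 2 libraries of InsE, InsF, InsG, InsH and control, with circles for replicate 1, triangles for replicate 2 and a line at the group mean. YBX3, IGF2BP1 and IGF2BP3 stand high in InsF, InsG and InsH and low in InsE, while IGF2BP2, HMGA2 and YBX1 keep similar levels in all groups.

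IGF2BP3 (ENSG00000136231, chr7:23310209-23470467, minus strand) codes for an oncofetal messenger RNA-binding protein that is silent in most adult tissues. It stood at 1.62 and 1.54 CPM in the InsE libraries, at 13.4 and 12.7 CPM in InsF, at 15.2 and 13.3 CPM in InsG and at 14.4 and 15.9 CPM in InsH, against 4.63 and 4.39 CPM in the control. The InsE libraries lay below both control libraries, the InsF, InsG and InsH libraries lay above both, and no groups overlapped across these 3 levels. In edgeR's quasi-likelihood test IGF2BP3 fell in InsE by 1.47 ± 0.15 on the log2 scale (SE, adjusted p = 0.000147, 2 of 2 libraries lower). It rose in InsF by 1.53 ± 0.11 (edgeR adjusted p = 1.98e-05), in InsG by 1.67 ± 0.11 (1.57e-05) and in InsH by 1.74 ± 0.11 (1.29e-05). InsE was thus 8.69-fold lower than the mean of InsF, InsG and InsH, a log2 difference of -3.12 ± 0.12 (edgeR adjusted p = 7.3e-07). The mean of the 4 lines, +0.87 ± 0.10 (edgeR adjusted p = 0.000199), averages over the opposite changes and describes no single line. On TPM the fall in InsE was smaller and was not called, at -0.42 with limma on log2(TPM + 1) (adjusted p = 0.151). TPM divides by the mean transcript length assigned to the gene, which was 1454 to 1789 bases in InsE and 2399 to 4250 bases elsewhere. MALSU1, which overlaps the end of IGF2BP3 on the opposite strand, differed by 0.09 between the lines and the control (edgeR adjusted p = 0.356) and by 0.06 between InsE and the other lines (0.568). How the counting treated strand is not known here.

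The promoter of IGF2BP3 (RefSeq, GRCh38.p14, chr7:23470442-23470741, minus strand, 250 bases before to 50 after the start) held 17 CpG dinucleotides, against a median of 14 over 35116 promoters, and 2 copies of the E-box CACGTG, which 7.26% of promoters hold at least once on either strand. The capitals mark these copies:
IGF2BP3: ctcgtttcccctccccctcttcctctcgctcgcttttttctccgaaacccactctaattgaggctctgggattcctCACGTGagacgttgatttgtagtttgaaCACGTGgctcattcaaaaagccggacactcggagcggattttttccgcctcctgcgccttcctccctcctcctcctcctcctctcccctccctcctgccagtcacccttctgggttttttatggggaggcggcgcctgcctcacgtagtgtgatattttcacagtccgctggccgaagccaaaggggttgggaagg

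IGF2BP1 (ENSG00000159217, chr17:48997412-49055650, plus strand), the founding IGF2 messenger RNA-binding protein and a stabiliser of MYC messages, was nearly silent in the control. It had 27 and 6 counts in InsE, 79 and 51 counts in InsF, 115 and 40 counts in InsG and 72 and 35 counts in InsH, against 5 and 7 counts in the control. This corresponds to 0.864 and 0.635 CPM in InsE, 2.73 and 3.43 CPM in InsF, 2.69 and 3.58 CPM in InsG and 3.11 and 2.90 CPM in InsH, against 0.168 and 0.359 CPM in the control. Every line library lay above both control libraries, and both InsE libraries lay below every library of InsF, InsG and InsH. The log2 fold change over control was 1.64 ± 0.40 for InsE, 3.59 ± 0.35 for InsF, 3.60 ± 0.35 for InsG and 3.57 ± 0.35 for InsH (SE). These 3 lines, 11.9-fold to 12.1-fold above control, did not differ beyond their spread. InsE differed from their mean by -1.94 ± 0.28 on the log2 scale. The low counts make the size uncertain: without the first control library the InsE fold change over control was 1.11 and without the second it was 2.19, and the mean of the lines over control, 3.10, became 2.57 and 3.65. TPM gave much smaller changes, with 0.01 in InsE and 0.52 for the mean of the lines on the log2(TPM + 1) scale. On the log2(TPM + 0.1) scale they were 0.08 and 1.52. The InsE libraries stood at 0.18 and 0.11 TPM, between the control libraries at 0.21 and 0.07 TPM. In TPM, InsE and the control thus overlapped. The length assigned to the gene, by which TPM divides, ranged from 1373 to 8274 bases between libraries. Its TPM values were 0.07 to 1.25, so the pseudocount of 1 is larger than most of them.

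IGF2BP2 (ENSG00000073792, chr3:185643739-185825056, minus strand) is the family member that persists in adult tissue and binds metabolic and mitochondrial messages. It was the dominant paralogue here, with 505 and 510 CPM in InsE, 393 and 424 CPM in InsF, 405 and 422 CPM in InsG and 405 and 424 CPM in InsH, against 503 and 494 CPM in the control. InsE lay just above the control range, and the 6 libraries of InsF, InsG and InsH lay below both the control and InsE. It fell by 0.29 ± 0.05 in InsF (edgeR adjusted p = 0.0042), by 0.27 ± 0.05 in InsG (0.00686) and by 0.27 ± 0.05 in InsH (0.00754), and the InsE value was 0.03 ± 0.05 (0.77). InsE was 0.30 ± 0.04 above the mean of InsF, InsG and InsH (edgeR adjusted p = 0.000958, 2 of 2 libraries higher). The InsG call was lost without the first InsG library (adjusted p = 0.0602) or the first control library (0.0687), and the InsH call without the first InsH library (0.0536), the first control library (0.0743) or the second (0.0512). On log2(TPM + 1) with limma neither was called, at -0.16 in InsG (adjusted p = 0.0758) and -0.17 in InsH (0.068). The direction of IGF2BP2 was opposite to that of IGF2BP3 in InsF, InsG and InsH, and across the 10 libraries their log2 CPM had a Pearson r of -0.92, a description of libraries that share groups.

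In transcript units the IGF2BP family summed to 226 TPM in InsE, 197 TPM in InsF, 202 TPM in InsG and 206 TPM in InsH, against 222 TPM in the control. IGF2BP2 made up 94.8% to 99.2% of it in every group. IGF2BP3 supplied 0.735% for InsE, 3.1% for InsF, 2.83% for InsG and 4.86% for InsH, against 1.16% in the control, and IGF2BP1 supplied at most 0.481%. The higher levels of IGF2BP1 and IGF2BP3 in InsF, InsG and InsH were a small share of the family's messages. These TPM shares depend on the assigned transcript length. For IGF2BP3 it was 2746 and 2399 bases in InsH and 3367 to 4250 bases in InsF and InsG. In CPM the IGF2BP3 means were 13.0 in InsF, 14.2 in InsG and 15.1 in InsH.

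YBX3 (ENSG00000060138, chr12:10699089-10723312, minus strand), also known as CSDA or ZONAB, is a cold shock domain protein that binds messenger RNA and, at epithelial tight junctions, shuttles between junction and nucleus. It stood at 4.10 and 5.61 CPM in InsE, 26.4 and 25.8 CPM in InsF, 28.4 and 30.5 CPM in InsG and 31.9 and 31.6 CPM in InsH, against 1.84 and 2.10 CPM in the control. All line libraries lay above the control, with InsE nearest to it and the other lines apart from InsE by more than any spread between replicates. The log2 fold change over control was 1.22 ± 0.16 for InsE, 3.74 ± 0.13 for InsF, 3.90 ± 0.13 for InsG and 4.02 ± 0.13 for InsH (SE), or 2.33-fold, 13.4-fold, 15.0-fold and 16.2-fold. InsE differed from the mean of InsF, InsG and InsH by -2.67 ± 0.11 on the log2 scale and was 6.35-fold lower. Its processed copy YBX3P1 had 0 or 1 counts per group. In CPM, for both YBX3 and IGF2BP1, the control was lowest, InsE came next and InsF, InsG and InsH were highest. Over the 10 libraries the log2 CPM of these genes had a Pearson r of 0.98.

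The promoter of YBX3 (RefSeq, GRCh38.p14, chr12:10723274-10723573, minus strand) is CpG-rich, with 32 CpG dinucleotides, more than 81.1% of promoters hold. It has 1 Y-box core ATTGG, the motif that gave the family its name, which 34.6% of promoters hold on either strand, and 1 GC box GGGCGG (on the minus strand of the printed sequence), which 45.0% hold. They are in capitals:
YBX3: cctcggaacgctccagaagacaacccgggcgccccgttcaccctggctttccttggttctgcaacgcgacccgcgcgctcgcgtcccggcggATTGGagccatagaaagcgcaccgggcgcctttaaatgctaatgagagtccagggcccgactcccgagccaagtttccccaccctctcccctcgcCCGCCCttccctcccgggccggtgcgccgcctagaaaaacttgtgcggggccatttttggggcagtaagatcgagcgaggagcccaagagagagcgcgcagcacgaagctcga
The promoter table has no entry for IGF2BP1, LIN28A and HMGA2.

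YBX1 (ENSG00000065978, chr1:42682427-42702349, plus strand) codes for the main packaging protein of cytoplasmic messenger RNA and was the most abundant member. It had 1344 and 1420 CPM in InsE, 1240 and 1311 CPM in InsF, 1212 and 1277 CPM in InsG and 1263 and 1368 CPM in InsH, against 1430 and 1439 CPM in the control. All 8 line libraries lay below both control libraries in CPM, by a small margin that depends on the TMM scaling. The TMM factors were 0.9687 and 0.9711 in the control libraries and 1.0028 to 1.0124 in the lines. On library totals without these factors, the second InsE library lay above both control libraries. The mean of the lines fell by 0.14 ± 0.04 on the log2 scale (edgeR adjusted p = 0.0401). Among single lines InsG fell, by 0.21 ± 0.06 (edgeR adjusted p = 0.0292), while InsE, InsF and InsH differed by -0.05, -0.17 and -0.13 with adjusted p of 0.525, 0.055 and 0.152. The call for the mean was lost with library sizes alone as scaling (-0.08, adjusted p = 0.174) and without the first library of InsE (0.0556), InsF (0.0557) or InsG (0.0551), the first control library (0.21) or the second (0.222). The InsG call was lost without the first InsG library (0.163) or either control library (0.138 and 0.142), and with library sizes alone (-0.15, adjusted p = 0.0794). Neither call was made by limma on log2(TPM + 1), at -0.08 for the mean (adjusted p = 0.148) and -0.11 in InsG (0.14). YBX1 has 10 processed copies in the tables that share most of its sequence, which together held 619 to 915 counts in a line, against 973 in the control, next to 45789.8 to 66136.8 counts of YBX1 in the lines.

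YBX2 (ENSG00000006047, chr17:7288252-7294615, minus strand), the germ cell Y-box protein that stores messages in oocytes and spermatids, was scarce. It stood at 1.02 and 1.69 CPM in InsE, 1.24 and 1.41 CPM in InsF, 1.47 and 1.16 CPM in InsG and 1.29 and 1.33 CPM in InsH, against 0.537 and 0.616 CPM in the control, on 13 to 63 counts per line library and 16 and 12 counts in the control. All line libraries lay above both control libraries. YBX2 rose in every line, with log2 values of 1.16 ± 0.33 for InsE, 1.20 ± 0.33 for InsF, 1.23 ± 0.32 for InsG and 1.19 ± 0.33 for InsH and edgeR adjusted p of 0.0338, 0.0273, 0.0261 and 0.0344. For the mean of the lines the rise was 1.19 ± 0.27 (0.0102), which is 2.29-fold. InsE and the other lines differed by -0.05 ± 0.26 (edgeR adjusted p = 0.935). These calls depended on the tool and on single libraries: DESeq2 gave an adjusted p of 0.0737 for the mean and 0.191 to 0.232 for single lines, and the call for the mean was lost without the first control library (0.13) or the second (0.0696). SLC2A4, which ends within YBX2 on the opposite strand, differed by 0.07 (edgeR adjusted p = 0.821). Of 12 markers of pluripotent and germ cells, 10 had 0 counts in all libraries, NANOG, DDX4, DAZL and PRM1 among them.

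The YBX family summed to 1564 TPM in InsE, 1553 TPM in InsF, 1546 TPM in InsG and 1614 TPM in InsH, against 1627 TPM in the control, with 97.1% to 99.8% from YBX1. YBX3 supplied 0.37% for InsE, 2.61% for InsF, 2.8% for InsG and 2.57% for InsH, against 0.151% in the control. The plot of family shares shows the scarce member of each family.

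**Figure D2:**
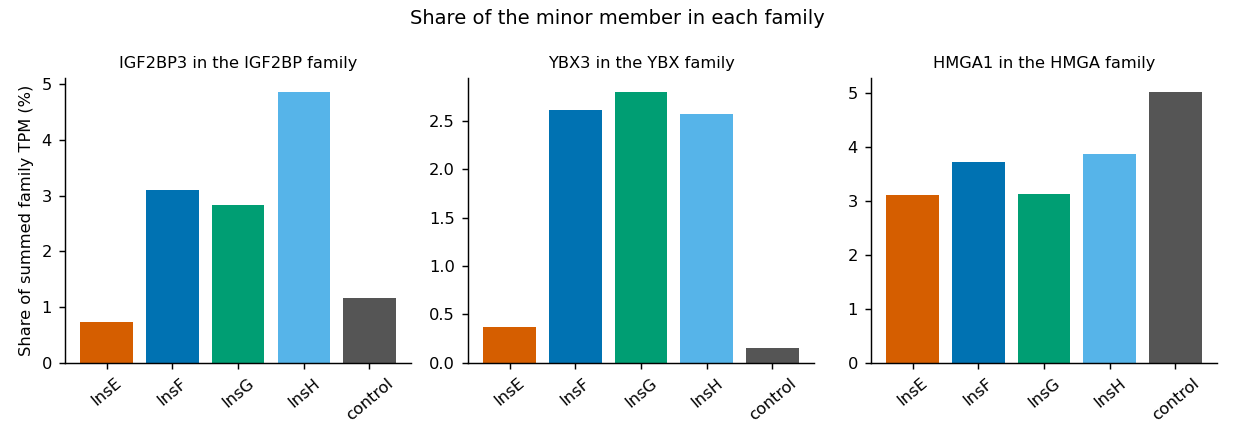
Share of the summed TPM of a family (percent, bars from 0, mean of 2 libraries) that came from IGF2BP3, YBX3 and HMGA1 in InsE, InsF, InsG, InsH and control. YBX3 reaches 2.57% to 2.8% in InsF, InsG and InsH, compared with 0.151% in the control, IGF2BP3 reaches 4.86% in InsH, and HMGA1 is highest in the control at 5.01%. The transcript length assigned to IGF2BP3, by which TPM divides, was shorter in InsH than in InsF and InsG.

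HMGA2 (ENSG00000149948, chr12:65824131-65966295, plus strand) codes for an embryonic chromatin protein whose message is a textbook let-7 target. It was abundant in all groups, with 306 and 273 CPM in InsE, 241 and 236 CPM in InsF, 282 and 259 CPM in InsG and 264 and 240 CPM in InsH, against 263 and 257 CPM in the control. InsE lay above the control, InsF below it, and InsG and InsH overlapped with it. No line differed from the control at the threshold, with log2 values of 0.16, -0.12, 0.06 and -0.05 in InsE, InsF, InsG and InsH (edgeR adjusted p 0.145 to 0.707). InsE was 0.19 ± 0.06 above the mean of InsF, InsG and InsH (edgeR adjusted p = 0.037). This call was lost without the first InsE library, where the value was 0.11 (adjusted p = 0.371), without the first or second InsF library (0.0549 and 0.0666), the second InsG (0.0654) or InsH (0.0653) library, or either control library (0.0729 and 0.0696), and the limma value on TPM was 0.07. Inside the gene on the opposite strand, the long noncoding RNA AC090673.1 (ENSG00000197301, chr12:65851340-65882167) differed far more, with InsE 2.70 above the mean of InsF, InsG and InsH on the log2 scale (edgeR adjusted p = 9.57e-05). Its value for the mean of the lines over control was -0.71 (edgeR adjusted p = 0.0769). It had 110 counts in all lines together and 34.4 in the control, far fewer than HMGA2 itself. Without a known strand setting, reads of this gene and of HMGA2 introns cannot be told apart. RPSAP52, antisense to the start of HMGA2, differed by 0.03 for the mean of the lines (edgeR adjusted p = 0.971).

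HMGA1 (ENSG00000137309, chr6:34236873-34246231, plus strand), the other AT-hook chromatin protein and usually the more widely expressed one in tumours, was scarce here. It had 3.65 and 4.02 CPM in InsE, 3.21 and 4.91 CPM in InsF, 3.13 and 3.76 CPM in InsG and 4.15 and 4.23 CPM in InsH, against 5.90 and 5.39 CPM in the control. All line libraries lay below both control libraries. The mean of the lines fell by 0.57 ± 0.15 (edgeR adjusted p = 0.0206), and of the single lines InsG fell, by 0.74 ± 0.20 (0.0294). InsE, InsF and InsH had values of -0.58, -0.51 and -0.44 with adjusted p of 0.069, 0.0986 and 0.167. The call for the mean was lost without the first control library (0.212) or the second (0.1) and with DESeq2 (0.106), and the InsG call without the first InsG library (0.232), either control library (0.174 and 0.0996) or with DESeq2 (0.124). Limma on log2(TPM + 1) made neither call, at -0.41 for the mean (adjusted p = 0.0981) and -0.49 in InsG (0.136). In TPM, HMGA1 averaged 3.29 to 3.94 in the lines, against 5.01 in the control, while HMGA2 averaged 94.8 to 104 TPM, against 95.0. HMGA2 was thus 95.0% to 96.9% of the HMGA pair. The 8 processed copies of HMGA1 held 5 to 9 counts per group.

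LIN28A (ENSG00000131914, chr1:26410778-26429722, plus strand) and LIN28B (ENSG00000187772, chr6:104936616-105083332, plus strand) block let-7 maturation in the nucleus and cytoplasm of embryonic cells. Both had 0 counts in each of the 10 libraries. A count of 0 allows up to 3 counts in a library, which is 0.0706 to 0.319 CPM depending on its depth, a limit that covers counting error only. No fold change is given. HMGA2 and IGF2BP2, both targets of let-7 in other tissues, were abundant in libraries without detectable LIN28 messages.

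**Figure D3:**
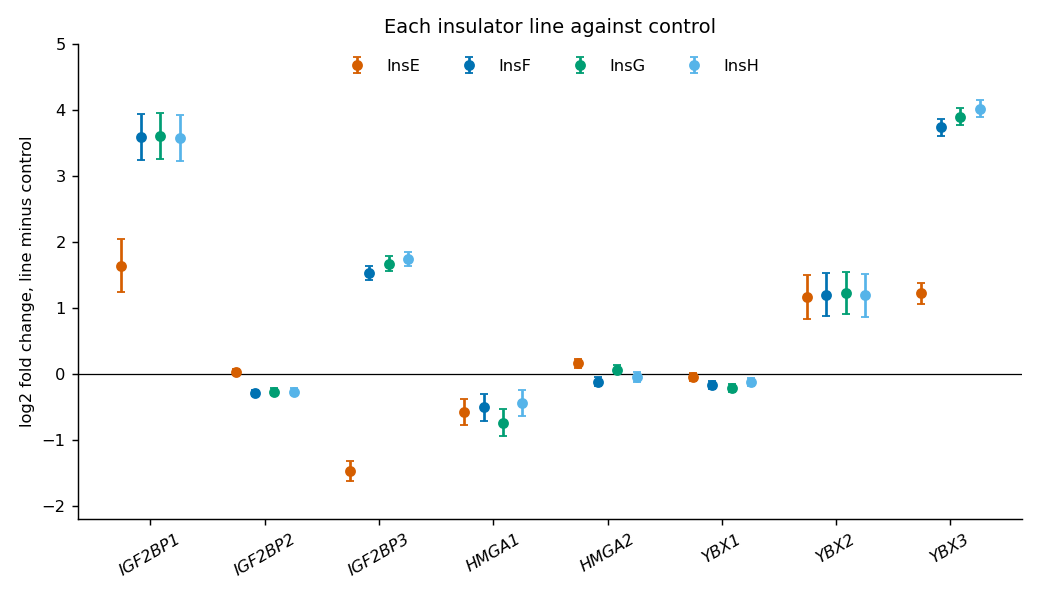
Log2 fold change of each detected member in InsE, InsF, InsG and InsH over control (vertical axis), with bars for the standard error of the edgeR fit on 10 libraries. IGF2BP3 lies at -1.47 in InsE and between 1.53 and 1.74 in the other lines, and YBX2 lies between 1.16 and 1.23 in all 4 lines.

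Counted over the 6 tested members other than IGF2BP1 and YBX3, 1 rose and 1 fell in InsE, 2 rose and 1 fell in InsF, 2 rose and 3 fell in InsG, and 2 rose and 1 fell in InsH. Of all genes tested, 23.2% were called for InsE, 22.3% for InsF, 20.3% for InsG and 18.4% for InsH, so 2 calls of 6 in InsE are near the background. For the mean of the 4 lines 2 of the 6 rose (IGF2BP3 and YBX2) and 3 fell (IGF2BP2, HMGA1 and YBX1), against 27.6% of all genes called, 13.1% higher and 14.5% lower. The calls of IGF2BP2, HMGA1, YBX1 and YBX2 for the mean were each lost without either control library, and that of IGF2BP3 was kept. The limma fits on TPM called none of these 4 genes for the mean, with adjusted p of 0.0617 for IGF2BP2, 0.0981 for HMGA1, 0.148 for YBX1 and 0.142 for YBX2 on log2(TPM + 1), where YBX2 had a value of 0.40. These comparisons share the control libraries, so their likeness between lines is not counted as agreement.

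Among the lines themselves, where no control library sets the difference, 2 of the 6 were higher in InsE than in the mean of InsF, InsG and InsH (IGF2BP2 and HMGA2) and 1 was lower (IGF2BP3). The background was 24.2% of all genes called, 11.4% higher and 12.8% lower. An overall test of any difference among the 4 lines called IGF2BP3 (edgeR adjusted p = 6.36e-06) and IGF2BP2 (0.00751), against 13.2% of all genes, and gave 0.0839 for HMGA2, 0.27 for YBX1 and 0.696 for HMGA1. The IGF2BP2 call in that test was lost without the first InsE library (0.0704) or the second (0.0595) and with limma on log2(TPM + 1) (0.0569), and HMGA2 was called with DESeq2 (adjusted p = 0.0281) and without a filter (0.00431). Among the lines, libraries with the same replicate number deviated together. With the replicate number as a block, 38.2% of all genes were called in InsE against the other lines and 35.0% in the overall test. That fit called YBX1 in both (0.11, adjusted p = 0.00223, and 0.00631) and HMGA2 in the overall test (0.000376). InsF, InsG and InsH had IGF2BP3 means of 13.0 ± 0.49, 14.2 ± 1.3 and 15.1 ± 1.1 CPM (SD, n = 2 each), which are close to each other relative to the gap to InsE at 1.58 ± 0.061 CPM.

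**Figure D4:**
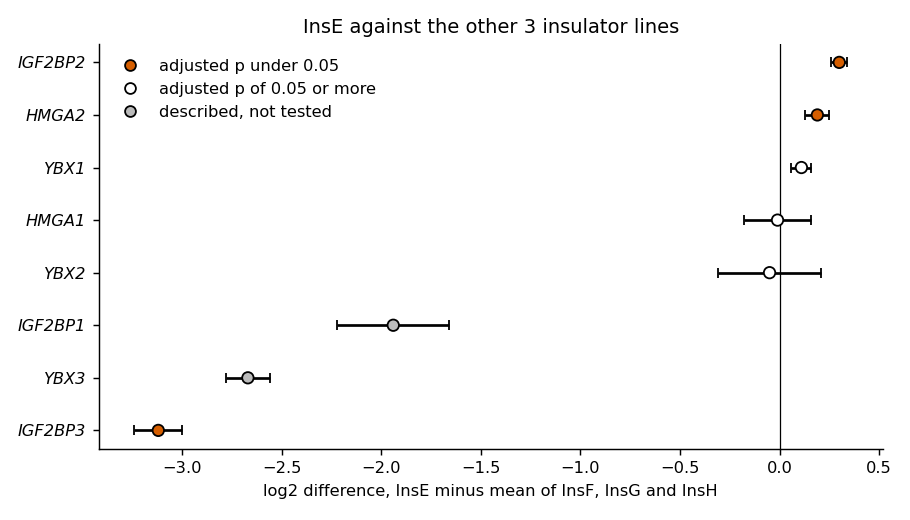
Log2 difference between InsE and the mean of InsF, InsG and InsH for each detected member (horizontal axis), with bars for the standard error of the edgeR fit. IGF2BP3, YBX3 and IGF2BP1 lie at -3.12, -2.67 and -1.94, and the abundant members lie between 0.11 and 0.30. Orange points passed the threshold, white points did not, and grey points are described without a test.

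Genes whose profile over the 10 libraries was most like that of YBX3, by Pearson r of log2 CPM, were APOL1 (0.993), DHRS2 (0.993), CA2 (0.992), DACT1 (0.990) and SPARC (0.990), among 10409 genes compared. Most like IGF2BP1 were MOBP (0.991), THRB (0.988), COL14A1 (0.988), HSPB8 (0.987) and SULF1 (0.986). CA2, carbonic anhydrase 2, averaged 848 CPM in InsE, 1186 CPM in InsF, 1166 CPM in InsG and 1168 CPM in InsH, against 714 CPM in the control, with the control lowest, InsE next and a much smaller fold than YBX3. HSPB8, a small heat shock protein, averaged 2.28 CPM in InsE, 10.3 CPM in InsF, 9.39 CPM in InsG and 8.51 CPM in InsH, against 1.03 CPM in the control. The 10 libraries are 5 pairs of like libraries, so any gene with the control lowest, InsE next and the other lines highest has a high r.

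Some fibroblast and smooth muscle markers were also lower in InsE than in the other lines. As background for the counts below, 13.1% of all genes were called higher and 14.5% lower for the 4 lines together against control. For InsE against the other lines these shares were 11.4% and 12.8%. Of 6 tested fibroblast markers (of 8, with FAP at 0 everywhere) 5 rose and 1 fell over the 4 lines together, or 3 and 0 without either control library, and 3 were lower in InsE than in the other lines. They summed to 2087 to 2174 TPM in InsE, 2993 to 3051 TPM in InsF, 2941 to 2964 TPM in InsG and 2892 to 2948 TPM in InsH, against 2247 to 2267 TPM in the control. Of 6 tested smooth muscle markers (of 8, with DES at 0 everywhere) 4 rose and 1 fell, or 4 and 0 without either control library, and 4 were lower in InsE, with sums of 394 to 416 TPM in InsE, 724 to 773 TPM in InsF, 558 to 589 TPM in InsG and 615 to 651 TPM in InsH, against 408 to 415 TPM in the control. DCN, the proteoglycan decorin, stood at 2.59 CPM in InsE and 36.5 to 44.6 CPM in the other lines, against 1.01 CPM in the control. Their part in the levels of YBX3, IGF2BP1 and IGF2BP3 was not tested.

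The genes around the members were read from lists of related genes. Of 15 tested genes for microRNA processing and let-7 decay, 0 rose and 7 fell on the mean over the 4 lines, with a median log2 fold change of -0.17 against 0.01 over all genes. AGO2, the slicing Argonaute, fell by 0.38 ± 0.04 (edgeR adjusted p = 9.94e-05), with 267 to 273 CPM in the lines against 353 CPM in the control. DICER1, which cuts precursors to mature microRNAs, fell by 0.31 ± 0.05 (0.00158), ZCCHC11, the uridylating enzyme that LIN28A recruits to let-7 precursors, by 0.28 ± 0.06 (0.00672), and XPO5, the precursor exporter, by 0.27 ± 0.04 (0.00124). The number lower was 5 without either control library. In InsE against the other lines 3 of the 15 were higher and 2 lower, and without the second InsE library 1 and 0.

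Of 4 tested let-7 host transcripts, MIR99AHG, which carries let-7c, rose by 1.17 ± 0.15 (edgeR adjusted p = 0.000556), and HUWE1, a ubiquitin ligase gene with let-7f and miR-98 in an intron, fell by 0.50 ± 0.05 (6.86e-05). MIR99AHG averaged 12.1 CPM in InsE, 10.1 CPM in InsF, 9.68 CPM in InsG and 9.61 CPM in InsH, against 4.57 CPM in the control. MIRLET7BHG, the host of let-7a-3 and let-7b, was 0.86 ± 0.13 higher in InsE than in the other lines (edgeR adjusted p = 0.00149).

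Of 32 tested let-7 target genes outside the members, 3 rose and 10 fell on the mean over the 4 lines, and 7 were higher and 4 lower in InsE than in the other lines. The neural and embryonic factor MYCN fell by 0.76 ± 0.04 (edgeR adjusted p = 3.41e-06) in the mean, but its level was 247 CPM in InsE and 102 to 126 CPM in the other lines, against 240 CPM in the control. InsE was 1.07 ± 0.04 above the others (9e-07). PLAGL1, an imprinted zinc finger gene, fell by 0.59 ± 0.04 (9.21e-06) and E2F2, a cell cycle factor, by 0.44 ± 0.07 (0.00158). THBS1, thrombospondin 1, rose by 0.59 ± 0.04 (1.06e-05) in the mean and differed by -1.0 ± 0.04 between InsE and the others (9.64e-07). The number lower in the mean was 5 without the first control library and 7 without the second, and the number higher in InsE was 3 without its first library.

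Of 14 tested messages known from other cells as IGF2BP targets, 3 rose and 1 fell on the mean over the 4 lines, and 1 was higher and 5 lower in InsE than in the other lines. CTGF, a matricellular growth factor gene, rose by 0.85 ± 0.09 (edgeR adjusted p = 0.000161) with 16.7 CPM in InsE, 49.5 CPM in InsF, 14.8 CPM in InsG and 19.1 CPM in InsH, against 12.3 CPM in the control, so InsF carries most of it. CD44, the hyaluronan receptor, rose by 0.74 ± 0.05 (1.44e-05) with 44.7 CPM in InsE, 88.1 CPM in InsF, 71.4 CPM in InsG and 72.1 CPM in InsH, against 40.4 CPM in the control, and differed by -0.77 ± 0.06 between InsE and the others (1.67e-05). SRF rose by 0.25 ± 0.06 (0.0164), and PABPC1, the poly(A)-binding protein gene, fell by 0.26 ± 0.03 (0.000275). The number lower in InsE was 3 without either InsE library. IGF2, H19 and MYC, the targets for which the family is best known, are named here outside the rule for named genes. IGF2 averaged 3316 ± 780 CPM in InsE, 3231 ± 760 CPM in InsF, 2895 ± 670 CPM in InsG and 3133 ± 780 CPM in InsH, against 4276 ± 59 CPM in the control (SD, n = 2 each), a log2 value of -0.45 ± 0.21 (edgeR adjusted p = 0.18). H19 differed by -0.07 ± 0.08 (0.568) and MYC, near 1 CPM, by 0.31 ± 0.23 (0.343).

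Of 17 tested partners of IGF2BP in messenger ribonucleoproteins, 0 rose and 6 fell, among them the helicase DHX9 by 0.37 ± 0.03 (edgeR adjusted p = 6.02e-05), PURB by 0.26 ± 0.06 (0.0118) and PABPC4 by 0.19 ± 0.04 (0.00686), and the number lower was 2 without either control library. Of 15 tested m6A writers, erasers and readers, 0 rose and 3 fell: the writer subunit RBM15 by 0.50 ± 0.07 (0.000964), the decay reader YTHDF2 by 0.20 ± 0.04 (0.00667) and YTHDF1 by 0.15 ± 0.04 (0.0284). The number lower was 1 without either control library. CARHSP1, a further cold shock domain gene, had a log2 value of 0.02 (edgeR adjusted p = 0.861).

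Of 12 other high mobility group genes tested, 3 rose in the mean of the lines (HMG20B by 0.29, HMGN3 by 0.26 and HMGN5 by 0.22, edgeR adjusted p 0.00585 to 0.0418). These rises were lost without either control library. Of 15 polycomb and related chromatin genes, CBX7 rose by 0.64 ± 0.16 (0.0165) and EZH1 by 0.44 ± 0.09 (0.00687), while EZH2 and CBX2 fell by 0.22 each (0.00801 and 0.0065). The 2 rises were also lost without either control library, and the number lower was 1 without the first and 0 without the second. Of 12 other oncofetal genes tested, PLAG1 rose by 1.56 ± 0.31 (0.00496) and GPC3 by 0.17 ± 0.04 (0.00908), and 3 fell. Without the first control library 0 were higher and 1 lower, and without the second 1 and 1. PLAG1 was scarce, at 0.532 CPM in InsE and 0.826 to 1.2 CPM in the other lines, against 0.288 CPM in the control. In InsE alone PLAG1 was not called (edgeR adjusted p = 0.0978). GPC3 had log2 values of 0.50 for InsE and 0.00 to 0.11 for the other lines. DLK1 was almost absent from InsE, at 0.149 CPM, against 1.60 to 1.96 CPM in the other lines and 1.90 CPM in the control, and this line carries its mean fall of 0.95 ± 0.22 (0.0112). AFP and CEACAM5 had 0 counts in all libraries. Of 10 tested genes of the mesenchymal transition, listed as downstream of HMGA2, 0 rose and 3 fell. They were SNAI2 by 0.84 ± 0.07 (edgeR adjusted p = 4.15e-05), SMAD3 by 0.71 ± 0.07 (9.09e-05) and CDH2 by 0.22 ± 0.05 (0.00889). HMGA2 itself differed by 0.01, and whether it acts on the listed genes was not tested. InsE had 3 of the 10 genes higher and 4 lower than the other lines. The plot of list counts sets these shares beside those of all genes.

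**Figure D5:**
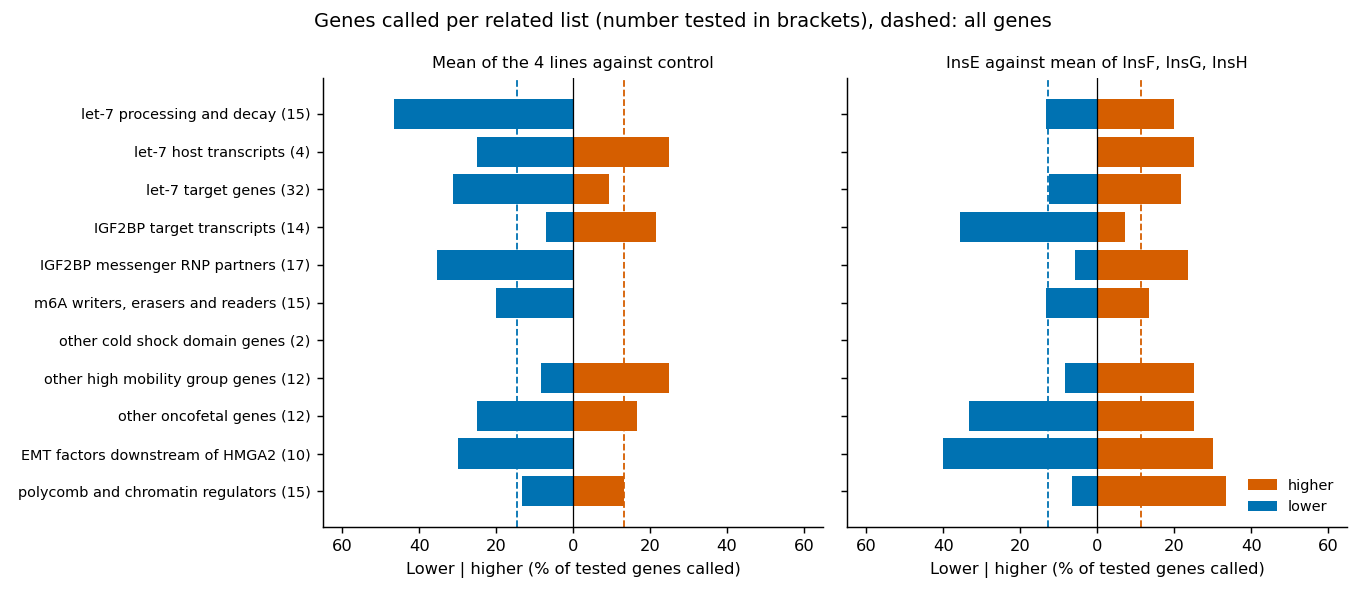
Share of the tested genes of each related list (percent, bars to the right for higher and to the left for lower) that were called in the mean of the 4 lines over control and in InsE over the mean of InsF, InsG and InsH, with the number tested in brackets and dashed lines at the shares of all genes (13.1% higher and 14.5% lower on the left, 11.4% and 12.8% on the right). The microRNA processing list has 7 of 15 genes lower in the left panel and none higher.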

How the data were processed

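RNA of 10 libraries, 2 for each of InsE, InsF, InsG, InsH and control, was measured by sequencing of polyadenylated RNA. The authors deposited 1 table per library with expected counts (gene totals as estimated by RSEM, left unscaled) and TPM (summing to 1000000 per library). The tools named are RSEM 1.3.2, STAR 2.5.3 and DESeq2 1.38.3, with the build hg38, per the submitters' processing notes. Annotation release and strand setting: not given in the sources used here. A series table with 10 value columns was not used, because its column names match no labels.

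Expected counts were rounded and tested with edgeR 4.0.16 (R 4.3.3; TMM scaling, filterByExpr with a minimum count of 10, robust quasi-likelihood fit of 5 groups on all 10 libraries, two-sided, Benjamini-Hochberg adjustment over 15554 genes, threshold 0.05). Contrasts were each line over control, the mean of the 4 lines over control, InsE over the mean of InsF, InsG and InsH, and any difference among lines. DESeq2 1.42.0 and limma 3.58.1 on log2(TPM + 1) or log2(TPM + 0.1), kept at 0.5 TPM in 2 libraries, were alternatives, with other scalings, no filter, a block for the replicate number and each library left out. The edgeR, limma and DESeq2 steps were run on simulated counts with independent libraries and the same spread setting for all genes. Such counts hold no deviation shared by replicate number and no change of transcript length, so the run does not test the steps under these features. Positions came from GENCODE 29, to which 58261 of 58381 rows matched by identifier. For let-7 matches, the 3′ untranslated region was the longest among the principal transcripts of a gene. Motifs were searched on both strands of promoters. SDs are between 2 libraries, and floors cover counting error only. Each SE is the absolute log2 fold change divided by the square root of F in the quasi-likelihood test. It therefore includes the estimated spread between libraries.

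The members and the gene lists were chosen with earlier results of these data known. Named genes were all members, up to 4 called genes per list with the largest change in the mean of the lines (or the 2 highest where none was called), the 5 genes most like YBX3 and IGF2BP1 with a mean log2 CPM of at least 1 (prior count 2), and genes overlapping a member or copied from one. IGF2, H19, MYC, MIRLET7BHG, AFP and CEACAM5 were named outside this rule. So were the cell type markers KIT, ANO1, DCN, FAP, DES, NANOG, DDX4, DAZL and PRM1. Some genes that the rule names are not reported here.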

Additional observations from a re-analysis of the deposited data

Results flagged for a closer look

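IGF2BP3 differed between InsE and the mean of InsF, InsG and InsH by -3.12 on the log2 scale in the edgeR test of the difference (adjusted p = 7.3e-07), with InsE below the control and the other lines above it. IGF2BP2 differed by 0.30 (adjusted p = 0.000958), with both InsE libraries above all 6 of the others. HMGA2 differed by 0.19 (adjusted p = 0.037), and its libraries overlapped. The cause of these differences was not tested.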

How the results depend on the processing

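Of the member results under the alternatives, 792 kept direction and call, 102 kept the direction but lost the call, 19 gained it, 43 moved by more than the replicate spread without a test and 19 changed sign. DESeq2 called 2212 genes in InsF, 2051 in InsG, 1856 in InsH and 2458 in InsE over the mean of InsF, InsG and InsH, against 3461, 3163, 2863 and 3762 in the edgeR fit. The limma fit on log2(TPM + 1) called 1586, 1466, 1110 and 1179 genes in InsE, InsF, InsG and InsH, 1999 for the mean, 2378 for InsE over the others and 856 among lines. With a pseudocount of 0.1 it called 1593, 1479, 1130, 1197, 2058, 2398 and 865, and without a filter 1176, 1144, 756, 937, 1510, 1861 and 564. Without a filter on counts edgeR called 3660 genes among lines, against 2055. The cause of these shifts was not tested. Leaving out single libraries gave 1429 to 3516 genes in InsE, 1446 to 3390 in InsF, 1170 to 3142 in InsG, 1108 to 2845 in InsH, 1501 to 4311 for the mean, 1956 to 3495 for InsE over the others and 700 to 1873 among lines, with the fewest without the first control library for the contrasts with the control and without the first InsE library for those among lines. The share called higher moved with scaling: for the mean, 2039 were higher and 2257 lower in the edgeR fit, 2806 and 1699 with library sizes alone, and 1290 and 709 with limma on TPM. With library sizes alone 2299 were higher and 1520 lower in InsE (1675 and 1936 in edgeR), 2210 and 1336 in InsF (1701 and 1760), 2149 and 1195 in InsG (1534 and 1629) and 1965 and 1068 in InsH (1392 and 1471). With limma InsF had 1015 higher and 451 lower, InsG 751 and 359, InsH 823 and 356, and for InsE over the others 1777 and 1985 in edgeR, and 563 and 1815 with limma.

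The replicate block gave 5935 genes in InsE, 5886 in InsF, 5769 in InsG, 5317 in InsH, 6679 for the mean, 5942 for InsE over the others and 5442 among lines. The difference between replicates 1 and 2 correlated over 12080 genes at 0.60 to 0.66 in the 6 pairs of lines and at 0.02 to 0.07 in the 4 pairs of a line with the control. The numbers thus go with a shared deviation among the lines, a hint from the data and not from the labels, and not with one shared with the control. With the block YBX1 was called in InsF (adjusted p = 0.000441) and InsH (0.00478), HMGA1 in InsE (0.0236) and InsF (0.0288), and HMGA2 in InsE (0.00646) and InsF (0.0225). YBX1 was also called in InsE over the others (0.00223) and among lines (0.00631) and HMGA2 among lines (0.000376), and no call of a member was lost.

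Values that changed sign were uncalled ones: IGF2BP2 in InsE was 0.0 without a filter, YBX1 in InsE 0.0 with library sizes alone, and HMGA2 in InsG -0.01 without its first library (0.11 without its second). HMGA2 in InsH was 0.01 with library sizes alone, 0.05 in the 3 limma fits and 0.02 without its second library (-0.12 without its first), and in the mean 0.0 without a filter and -0.01 without InsE 1, InsG 1, InsH 1 or control 2. HMGA1 in InsE over the others was 0.0 with the replicate block and 0.07, 0.09 and 0.02 without InsE 1, InsF 2 and InsG 2 (the lowest with a library left out was -0.11, without InsF 1), and YBX2 was 0.35 and 0.03 without InsE 1 and InsG 1 (the lowest with a library left out was -0.36, without InsE 2). Depth limits IGF2BP1 and YBX2 most, with 5 to 16 counts in control libraries.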
